A study of Mus musculus with 20 samples.

Results

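The platelet-derived growth factors (PDGF) and vascular endothelial growth factors (VEGF) were followed in sorted cells of mouse dorsal skin epidermis through 8 genes, taken by name from a table of 53380 genes. These were the PDGF ligands Pdgfa, Pdgfb and Pdgfc, the PDGF receptors Pdgfra and Pdgfrb, and the VEGF ligands Vegfa, Vegfb and Vegfc. Bulk RNA-seq had been run on 20 libraries of 5 populations separated by surface markers. The keratinocytes carrying integrin-α6 and Sca1, the main gate for basal cells between the hair follicles, had been split into Thy1hi cells (4 libraries) and Thy1- cells (4 libraries). A further 3 libraries came from keratinocytes sorted as Thy1+ and YFP+, 4 came from hair follicle stem cells (HFSCs; CD34+ and Sca1-), and 5 came from dendritic epidermal T cells (DETCs; Thy1+, and Sca1- in the labels), the resident T cells of the epidermis.

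The sample labels gave every library the genotype Thy1.2CreERT2-Rosa26-EYFP and no treatment. The labelled ages rose by a week from sample to sample, from 8 to 27 weeks, so that each population had its own range (8 to 11 weeks in HFSCs, 12 to 16 in DETCs, 17 to 19 in YFP+ cells, 20 to 23 in Thy1hi cells and 24 to 27 in Thy1- cells). The methods of the study instead give wild-type C57BL/6J animals of 8 weeks, and for YFP+ cells a tamoxifen-induced Cre driven by Thy1 promoter sequences, which marks the cells with YFP. The cell type label of the YFP+ libraries says ScaI-, whereas their titles and the methods place them among Sca1+ keratinocytes. How many animals were pooled in a library is unclear from these sources, so the p-values measure the spread between libraries, which may be partly technical. As labelled, age and population cannot be told apart.

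PDGFs are dimers that bind a pair of receptor tyrosine kinases on mesenchymal cells. PDGF-A binds the receptor encoded by Pdgfra and PDGF-B binds both receptors, whereas PDGF-C is secreted with an inhibitory CUB domain that proteases such as tissue plasminogen activator remove. In skin the epithelium is a known source of PDGF-A and the dermis carries the receptors. VEGF-A is the main driver of blood vessel growth, is made by keratinocytes, and is induced by low oxygen through hypoxia-inducible factors. VEGF-B acts through the receptor encoded by Flt1, and VEGF-C and VEGF-D act mainly through the lymphatic receptor encoded by Flt4.

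To place the genes, sequence just before the transcription start was read from RefSeq (GRCm38.p6), which had entries for 6 of the 8 genes and none for Pdgfb and Pdgfrb. The 250 bases before the start are shown for Pdgfc, the member that differed between Thy1hi and Thy1- cells, for Vegfa, which differed between Thy1hi cells and HFSCs, and for Vegfb, which passed the test in no comparison. None of the 3 windows overlapped an annotated exon. Capitals mark GC boxes (GGGCGG, on either strand) and the core of the hypoxia response element (ACGTG or GCGTG, on either strand), and a TATAAA box was searched for as well.
Pdgfc, chr3:81036166-81036415, + strand: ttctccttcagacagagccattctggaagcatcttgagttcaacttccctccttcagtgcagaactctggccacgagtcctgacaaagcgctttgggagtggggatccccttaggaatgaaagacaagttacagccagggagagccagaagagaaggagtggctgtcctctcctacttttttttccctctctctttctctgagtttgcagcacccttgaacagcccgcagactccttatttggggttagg
Vegfa, chr17:46032378-46032627, - strand: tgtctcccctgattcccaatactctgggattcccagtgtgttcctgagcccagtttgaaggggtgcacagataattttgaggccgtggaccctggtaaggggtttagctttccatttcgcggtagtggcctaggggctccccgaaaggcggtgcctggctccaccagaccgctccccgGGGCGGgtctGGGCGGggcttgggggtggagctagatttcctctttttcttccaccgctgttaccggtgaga
Vegfb, chr19:6987652-6987901, - strand: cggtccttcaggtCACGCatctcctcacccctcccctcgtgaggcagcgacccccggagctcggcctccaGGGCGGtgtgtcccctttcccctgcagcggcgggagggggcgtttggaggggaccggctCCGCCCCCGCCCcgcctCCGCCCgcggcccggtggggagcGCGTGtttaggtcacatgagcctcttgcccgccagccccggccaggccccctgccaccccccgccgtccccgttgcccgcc
The Pdgfc window held none of these motifs. The Vegfa window held 2 GC boxes and no hypoxia core, whereas the window of a second RefSeq start of Vegfa (chr17:46025164-46025413, - strand), which overlapped an exon of the gene and is not shown, held 1 GC box and 2 hypoxia cores. The Vegfb window held 4 GC boxes and 2 hypoxia cores. Over the windows of all 32851 RefSeq starts, 32.7% held a GC box, 38.6% the hypoxia core and 12.4% a TATAAA box. A match is a run of letters and not a site in use, and no match says only that these letters are not in this window.

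The values are normalized counts, that is reads on a gene divided by 1 size factor per library, from 7781256 to 12982392 reads on genes per library. A gene was tested where its normalized count was at least 10 in at least 3 libraries, which held for 17204 genes and for 7 of the 8 members. Vegfc was left out by this filter, and Pdgfrb passed it only through the DETC libraries. Differences were tested with limma on log2(normalized count + 1) over all 17204 genes with an adjusted p below 0.05 as the threshold for a call. Beside the calls of members stands an exact two-sided permutation test over libraries, whose smallest p is 0.0286 for 4 against 4 libraries, 0.0159 for 4 against 5, 0.0357 for 3 against 5 and 0.0571 for 3 against 4.

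The labels were checked against marker genes. The summed normalized counts of 6 T cell markers were 13620 to 23880 in DETCs and at most 303.6 in any other library, and Cd34 averaged 2046 ± 426 (SD, n = 4) in HFSCs against 57.8 to 99.98 in the other populations. DETC libraries also held keratinocyte transcripts, with a sum over 6 markers of 9975 to 49300 against 147400 to 215900 in Thy1hi cells. Endothelial markers were low, with sums over 8 markers of 90.1 to 123.5 in DETCs, 44.9 to 70.1 in HFSCs and 23.8 to 134.2 elsewhere. Cldn5 was listed at 0 in every library outside the DETCs. Sums over 8 pericyte and smooth muscle markers were larger, at 1286 to 1963 in HFSCs and 252.5 to 1170 elsewhere. Dermal fibroblast sums over 8 markers ran from 291 to 1998 in Thy1hi cells, 150 to 256 in Thy1- cells, 510 to 1076 in HFSCs, 342 to 1250 in DETCs and 209 to 419.5 in YFP+ cells. Sums over 6 hair follicle stem cell markers were 6750 to 10750 in HFSCs and 830 to 3110 elsewhere. Those over 6 melanocyte markers were 730 to 1004 in HFSCs and 105 to 307 elsewhere. For 6 Langerhans cell markers the sums were 63.1 to 4589 in HFSCs and 470 to 2935 elsewhere. Replicate 4 of the HFSCs stood apart, with a Langerhans cell sum of 63.1 against a population median of 2679 and the lowest value of its population for 11 of 16 hypoxia genes and 7 of 10 early and feedback genes. In the column of Thy1- replicate 4, 3212 genes stood in displaced rows and were put back, none of them among the 8. In bulk samples, fewer cells of a type and less RNA per cell cannot be told apart.

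Across the 10 comparisons of populations, 17 of 70 tests of single members were called, and 13 of these involved DETCs. Between Thy1hi and Thy1- cells 1 of 7 members tested was called (Pdgfc), where 0.337% of all genes tested were. Against HFSCs, 2 members were called in Thy1hi cells (Pdgfc and Vegfa; 13.4% of all genes), none in Thy1- cells (6.08%) and 1 in YFP+ cells (Pdgfa; 11.6%). No member was called between YFP+ and Thy1hi cells (0.0116% of all genes) or between YFP+ and Thy1- cells (0.761%). The 3 counts of 0 by limma stood beside 2, 2 and 1 members at an unadjusted p under 0.05 for Thy1- cells against HFSCs, YFP+ against Thy1hi and YFP+ against Thy1- cells, and DESeq2 called 1, 0 and 1 of them, edgeR none. The 2 between YFP+ and Thy1hi cells were Pdgfb and Pdgfrb, both lower in YFP+ cells. Of the 7 members, 0 were higher in YFP+ than in Thy1hi cells. Their median log2 fold change was -0.54, where all genes had -0.04.

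The comparisons with DETCs held most of the calls. DETCs differed from Thy1hi cells in 3 members (36.6% of all genes), from Thy1- cells in 2 (34.1%), from HFSCs in 4 (39.7%) and from YFP+ cells in 4 (38.1%). With 7 members these shares lie near that of all genes, so the counts themselves say nothing particular about the growth factors. Pdgfa was lower and Pdgfrb higher in DETCs in all 4 comparisons. Pdgfrb entered the test only through the DETC libraries, which favoured a difference from them, and its calls are part of these counts. Same-numbered libraries had correlated deviations from the population means for Thy1hi and Thy1- cells (0.293 to 0.716) and for HFSCs and DETCs (0.17 to 0.333). Pairs of unlike number reached 0.514 and 0.371, so the replicate numbers paired these libraries only in part. In fits of each of these comparisons alone with the number as a block, which for DETCs left out replicates a and b and HFSC replicate 4, 1 member (6.61% of all genes) and 4 members (42.2%) were again called.

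**Figure D1:**
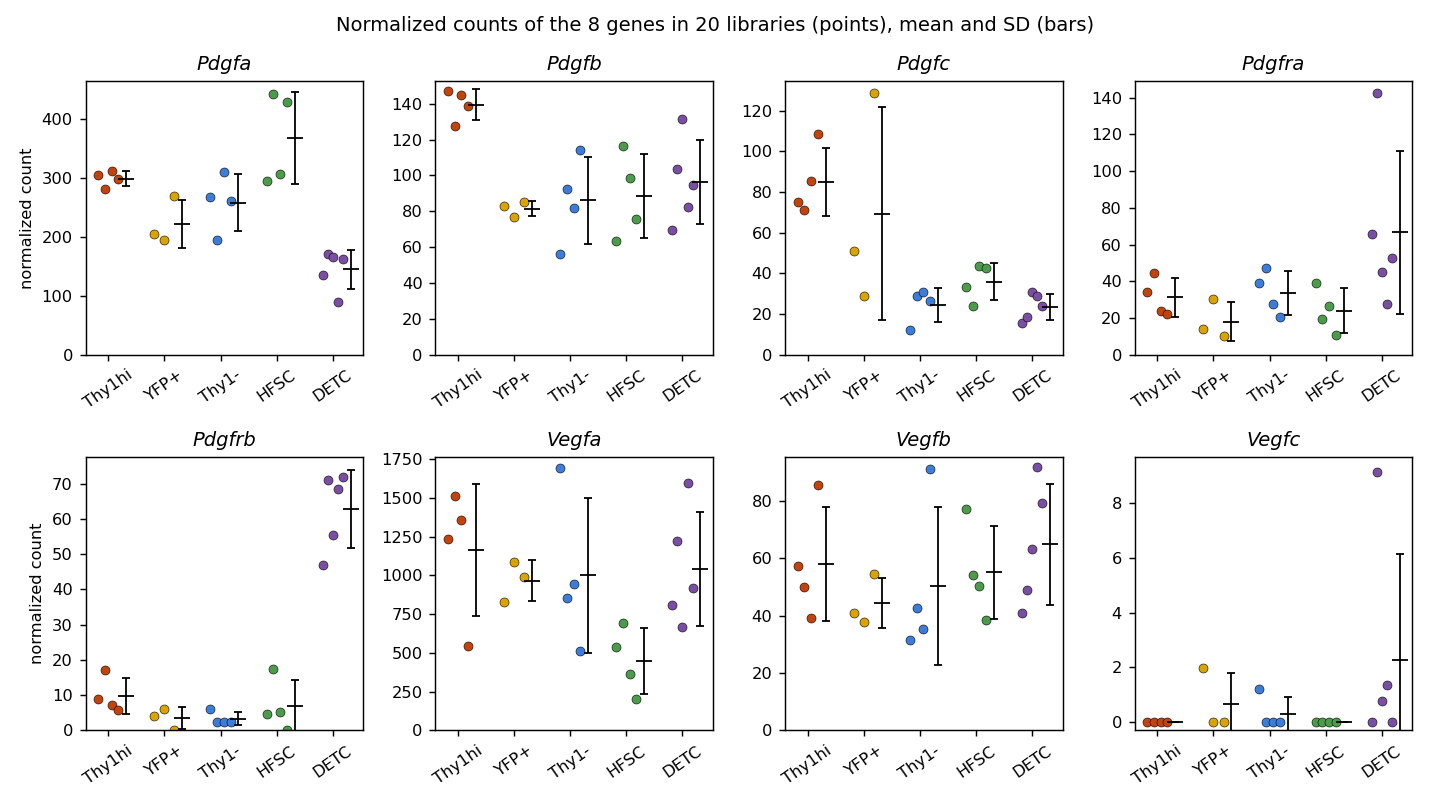
Normalized count (y axis, linear) of each gene in every library (points) of the 5 populations, with the mean and SD as bars (the part of a bar below 0 is cut off). Pdgfc was highest in Thy1hi cells except for 1 YFP+ library at 129, and Pdgfrb stood at 47.0 to 72.1 in DETCs and at most 17.4 elsewhere.

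Pdgfa (ENSMUSG00000025856, mm10 chromosome 5 from 138976014 to 138997370, - strand), which encodes the A chain, was highest in HFSCs and lowest in DETCs. The HFSC libraries held 294, 443, 307 and 430 normalized counts, and the Thy1hi libraries 306, 282, 312 and 298. The Thy1- libraries held 268, 194, 311 and 261, and the YFP+ libraries 204, 194 and 269. The DETC libraries held 136, 171, 166, 89.2 and 162. All 5 DETC libraries thus lay below all 15 keratinocyte libraries, while the keratinocyte populations overlapped each other except that YFP+ lay below Thy1hi cells and below HFSCs.

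The mean was 368 ± 78.7 (SD, n = 4) in HFSCs, 299 ± 13.1 (n = 4) in Thy1hi, 259 ± 48.1 (n = 4) in Thy1-, 223 ± 40.8 (n = 3) in YFP+ cells and 145 ± 33.9 (n = 5) in DETCs. The log2 fold change in DETCs was -1.08 ± 0.20 (SE) against Thy1hi cells (limma adjusted p 0.000226), -0.85 ± 0.20 against Thy1- cells (0.00238) and -1.35 ± 0.20 against HFSCs (1.78e-05), each with an exact p of 0.0159. These 3 calls held in all 13 alternative analyses and in all 20 fits that left out 1 library. Against YFP+ cells the change was -0.64 ± 0.22 (limma adjusted p 0.0251, exact p 0.0357), called in 8 of 13 alternatives and no longer called without DETC replicate a (limma adjusted p 0.0571) or YFP+ replicate 3 (0.142). DETC libraries also held the keratinocyte transcripts given above, and the part of these in the DETC value of Pdgfa was not tested.

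YFP+ cells held less Pdgfa than HFSCs (log2 fold change -0.71 ± 0.23, limma adjusted p 0.0468, exact p 0.0571), a difference close to the threshold that was called in 4 of the 20 fits that left out 1 library, with adjusted p from 0.0136 to 0.148. Thy1hi cells and HFSCs differed by -0.27 (interval of ± 2 SE, -0.70 to 0.15), and Thy1hi and Thy1- cells by 0.23 (-0.19 to 0.65). Neighbours in the order HFSC, Thy1hi, Thy1-, YFP+ did not differ beyond their spread. Only the last step of that order, from YFP+ cells to DETCs, was called.

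Pdgfb (ENSMUSG00000000489, chromosome 15 from 79995900 to 80014808, - strand) encodes the B chain, which endothelial cells use to recruit pericytes. The Thy1hi libraries held 147, 128, 145 and 139 normalized counts. The Thy1- libraries held 55.9, 92.6, 82.0 and 114, and the YFP+ libraries 82.7, 76.6 and 85.2. The HFSC libraries held 63.5, 116, 98.3 and 75.7, and the DETC libraries 69.5, 104, 131, 82.3 and 94.9. Every Thy1hi library lay above every library of the other keratinocyte populations, and only DETC replicate 3 reached into the Thy1hi range.

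The means were 140 ± 8.54 (SD, n = 4) in Thy1hi cells and between 81.5 and 96.3 in the other 4 populations. No comparison passed the test over all genes. The log2 fold change of Thy1hi cells was 0.73 ± 0.24 (SE) against Thy1- cells (limma adjusted p 0.302; with the replicate block 0.0531) and 0.69 ± 0.24 against HFSCs (0.0621), and each had an exact p of 0.0286. YFP+ cells stood at -0.77 ± 0.26 against Thy1hi cells (limma adjusted p 0.358, exact p 0.0571). DETCs stood at -0.56 ± 0.23 against Thy1hi cells (limma adjusted p 0.0594, exact p 0.0317). Against HFSCs the difference passed the threshold in 4 of 13 alternatives, with limma adjusted p between 0.0229 and 0.149 over them (DESeq2 0.0390), and without HFSC replicate 2 (0.0341) or Thy1- replicate 1 (0.0460). Against DETCs it did so in 2 alternatives (lowest limma adjusted p 0.0212) and without DETC replicate 3 (0.0274) or Thy1- replicate 1 (0.0427).

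Pdgfc (ENSMUSG00000028019, chromosome 3 from 81036416 to 81214040, + strand), the ligand with the CUB domain, was higher in Thy1hi cells than in Thy1- cells, HFSCs and DETCs. The Thy1hi libraries held 75.1, 71.1, 85.3 and 109 normalized counts, and the Thy1- libraries 12.2, 28.9, 30.8 and 26.2. The HFSC libraries held 33.5, 23.9, 43.8 and 42.7, and the DETC libraries 15.7, 18.3, 30.8, 28.8 and 24.0. The lowest Thy1hi library was above the highest of these 13 libraries. YFP+ cells were spread over the whole range, with 50.8, 28.6 and 129.

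Means were 85.1 ± 16.8 (SD, n = 4) in Thy1hi, 69.4 ± 52.6 (n = 3) in YFP+, 36.0 ± 9.31 (n = 4) in HFSCs, 24.5 ± 8.45 (n = 4) in Thy1- cells and 23.5 ± 6.54 (n = 5) in DETCs. Against Thy1- cells the log2 fold change of Thy1hi cells was 1.81 ± 0.39 (SE; limma adjusted p 0.0476, exact p 0.0286), a change of 3.51-fold on the log2(normalized count + 1) scale. Joined by replicate number, Thy1hi exceeded Thy1- in 4 of 4 pairs, by 6.17, 2.46, 2.77 and 4.14 times. With the replicate number as a block the limma adjusted p was 0.00323. Without the block the call was close to the threshold and held in 4 of the 20 fits that left out 1 library (limma adjusted p from 0.0188 to 0.186). It was lost without any of the 4 Thy1hi or 4 Thy1- libraries (limma adjusted p from 0.0948 to 0.186). It held in 6 of 12 alternatives (0.00247 to 0.203), of which 2 were the fits with the block. The log2 fold change was 1.52 to 1.94 over the 20 fits.

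**Figure D2:**
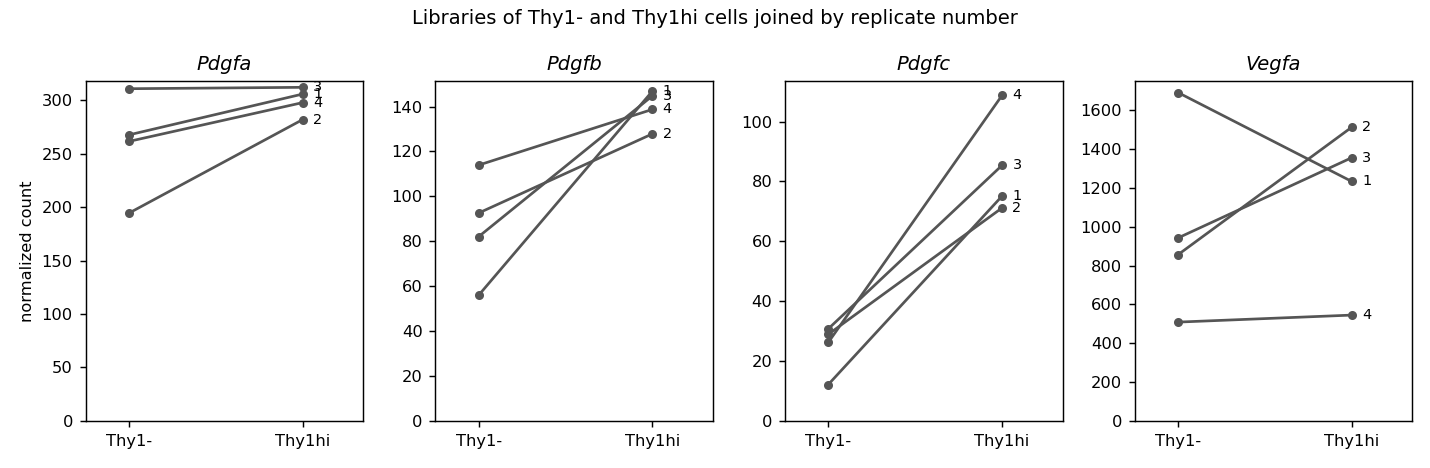
Normalized counts (y axis, linear) of 4 ligand genes in Thy1- and Thy1hi libraries, with lines joining libraries of the same replicate number (digits at the right). All 4 lines rise for Pdgfa, Pdgfb and Pdgfc, by 1.004 to 1.45, 1.22 to 2.62 and 2.46 to 6.17 times, and 3 of 4 rise for Vegfa.

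Thy1hi cells also held more Pdgfc than HFSCs (log2 fold change 1.24 ± 0.39, limma adjusted p 0.0406, exact p 0.0286) and than DETCs, which stood at -1.84 ± 0.37 against them (0.000526, exact p 0.0159). The call against DETCs held in all 12 alternatives and all 20 fits without 1 library. That against HFSCs held in 9 of 12 alternatives and 14 of 20 fits, and was lost without any of the 4 Thy1hi libraries or without HFSC replicate 1 or 2 (limma adjusted p from 0.0610 to 0.102). DETCs were lower than YFP+ cells as well (-1.30 ± 0.40, limma adjusted p 0.0152, exact p 0.107), which rested on YFP+ replicate 3 (without it -0.72, limma adjusted p 0.182). YFP+ cells differed from Thy1- cells by 1.27 ± 0.42 (limma adjusted p 0.168), called by DESeq2 (0.0265) and without YFP+ replicate 2 (0.0426). In the order of means, Thy1hi and YFP+ cells, YFP+ cells and HFSCs, HFSCs and Thy1- cells, and Thy1- cells and DETCs did not differ beyond their spread. The fibroblast marker sums, like Pdgfc, were higher in Thy1hi (291 to 1998) than in Thy1- cells (150 to 256) without overlap, while HFSCs (510 to 1076) and DETCs (342 to 1250), which held less Pdgfc, lay within the Thy1hi range. Of the 6 fibroblast markers tested, none was called between Thy1hi and Thy1- cells (0.337% of all genes called). With the replicate block 4 were higher in Thy1hi cells (6.61% of all genes called). The part of such transcripts in the Pdgfc values was not tested.

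Vegfa (ENSMUSG00000023951, chromosome 17 from 46016993 to 46032369, - strand) encodes VEGF-A. It had the highest level per kilobase of exon among the 8 genes in each population except HFSCs, where Pdgfa was at 118 and Vegfa at 105, and it was lowest in HFSCs. The HFSC libraries held 536, 694, 366 and 202 normalized counts, against 1234.2, 1513, 1356 and 545 in Thy1hi cells. The Thy1- libraries held 1692, 856, 943 and 509, and the YFP+ libraries 827, 1084 and 990. The DETC libraries held 806, 1219, 665, 1594 and 921. In the HFSC, Thy1hi and Thy1- populations replicate 4 was the lowest library each time, so that Thy1hi and Thy1- replicate 4 overlapped with the HFSCs while the other 6 libraries of these 2 populations did not.

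The mean was 449 ± 212 (SD, n = 4) in HFSCs, 1162 ± 427 (n = 4) in Thy1hi, 1000 ± 498 (n = 4) in Thy1-, 967 ± 130 (n = 3) in YFP+ cells and 1041 ± 370 (n = 5) in DETCs. Thy1hi cells exceeded HFSCs by 1.41 ± 0.39 (SE) on the log2 scale (limma adjusted p 0.0190, exact p 0.0571), and DETCs by 1.28 ± 0.37 (0.00888, exact p 0.0317). The difference from DETCs was called in all 13 alternatives and all 20 fits without 1 library. The call for Thy1hi cells was lost without HFSC replicate 4 (log2 fold change 1.07, limma adjusted p 0.0718), without Thy1hi replicate 1, 2 or 3 (0.0573, 0.0679 and 0.0604), and in a fit of these 2 populations alone (0.0577), and it held in 12 of 13 alternatives. Without all replicate 4 libraries it was called.

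YFP+ cells stood at 1.24 ± 0.42 (limma adjusted p 0.0615) and Thy1- cells at 1.16 ± 0.39 (0.0789) against HFSCs, neither of which passed the threshold. The difference of YFP+ cells passed it in 3 of 13 alternatives and in 5 of 20 fits without 1 library (limma adjusted p from 0.0307 to 0.174). That of Thy1- cells passed it in 4 of 13 alternatives, among them DESeq2 (0.0304) and the fit without all replicate 4 libraries (limma adjusted p 0.0213), and without HFSC replicate 2 (0.0421) or Thy1- replicate 4 (0.0275). The remaining 4 populations did not differ from each other beyond their spread. Thy1hi against Thy1- cells gave 0.25 (± 2 SE, -0.53 to 1.03), and DETCs against Thy1hi cells gave -0.13 (-0.87 to 0.61), or -0.65 with a limma adjusted p of 0.00724 in a fit of these 2 populations with a replicate block, whose numbers did not pair.

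Vegfb (ENSMUSG00000024962, chromosome 19 from 6982473 to 6987651, - strand), a ligand linked to lipid handling and vessel survival, showed no difference that passed the test. Its values were 57.4, 50.05, 39.0 and 85.4 in Thy1hi cells and 31.6, 42.8, 35.5 and 91.0 in Thy1- cells. HFSCs held 77.3, 54.3, 50.2 and 38.5, YFP+ cells 40.9, 37.9 and 54.5, and DETCs 41.1, 48.8, 63.2, 91.9 and 79.3. The population means lay between 44.4 and 64.9 and all ranges overlapped. The largest log2 difference was 0.49 ± 0.35 (SE) between DETCs and YFP+ cells (limma adjusted p 0.297; ± 2 SE, -0.21 to 1.20), and an interval of that width does not show that the populations held alike levels.

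Vegfc (ENSMUSG00000031520, chromosome 8 from 54077606 to 54187096, + strand), the lymphatic growth factor, was near absent from the reads. No read fell on it in the 4 Thy1hi libraries (of 40466105 reads on genes) or the 4 HFSC libraries (of 45027840). A count of 0 allows up to 3 reads per library, or 2.44 to 3.95 normalized counts in Thy1hi cells and 2.10 to 3.46 in HFSCs, where the limit covers counting error only. YFP+ cells held 2 reads in 1 library and Thy1- cells 1 read in 1 library. DETCs held 11 reads in 3 of 5 libraries, with 9.15 normalized counts in replicate 2 and at most 1.37 in the others. Whether Vegfc differed between populations was not detectable at this depth.

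The PDGF receptors followed another order from their ligands, with the highest means in DETCs. Pdgfra (ENSMUSG00000029231, chromosome 5 from 75152292 to 75198215, + strand), the receptor for PDGF-A and PDGF-C and a classic marker of fibroblasts, had 65.6, 142, 45.1, 27.4 and 52.8 normalized counts in the DETC libraries. Thy1hi libraries held 34.2, 44.8, 23.6 and 22.3, and Thy1- libraries 38.9, 47.4, 27.6 and 20.49. HFSC libraries held 39.2, 19.6, 26.7 and 10.5, and YFP+ libraries 14.0, 30.2 and 9.91. DETC replicates 1, 2 and b exceeded every library of the other populations, while replicates 3 and a lay among them.

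Mean values were 66.6 ± 44.5 (SD, n = 5) in DETCs, 33.6 ± 11.9 (n = 4) in Thy1-, 31.2 ± 10.5 (n = 4) in Thy1hi cells, 24.0 ± 12.1 (n = 4) in HFSCs and 18.0 ± 10.7 (n = 3) in YFP+ cells. DETCs exceeded HFSCs by 1.36 ± 0.45 (SE) on the log2 scale (limma adjusted p 0.0199, exact p 0.0317) and YFP+ cells by 1.76 ± 0.49 (0.00712, exact p 0.0714). The first call was lost without HFSC replicate 4 (1.04, limma adjusted p 0.0772), without DETC replicate 2 (1.04, 0.0652), and in the fits of the 2 populations alone (0.0516) and without all replicate 4 libraries (0.0722). The second was lost without YFP+ replicate 3 (1.43, 0.0555). Against Thy1hi cells the difference of 0.91 ± 0.45 did not pass (limma adjusted p 0.124), although DESeq2 called it (0.0474), as did the fit without DETC replicate a (limma adjusted p 0.0492). Fits with a replicate block called it too, over all populations (limma adjusted p 0.0371) and on these 2 (0.008), whose numbers did not pair. Against Thy1- cells it was 0.82 ± 0.45 (limma adjusted p 0.174), called in 1 of 12 alternatives, the block on those 2 populations (0.0159). The keratinocyte populations did not differ from each other beyond their spread. Of 8 dermal fibroblast markers 6 were tested. In DETCs 3 were called higher and 1 lower against YFP+ cells (median log2 fold change 1.61, 38.1% of all genes called). Against HFSCs 1 was higher and 1 lower (0.54, 39.7%). Against Thy1- cells 2 were higher (34.1%), and against Thy1hi cells 1 was lower (36.6%). The part of fibroblast transcripts in the Pdgfra values was not tested.

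Pdgfrb (ENSMUSG00000024620, chromosome 18 from 61045150 to 61085061, + strand), the receptor of pericytes and smooth muscle, gave the largest differences of the 7 members tested. All 5 DETC libraries held it at 47.0, 71.2, 55.3, 68.6 and 72.1 normalized counts. Thy1hi libraries held 8.83, 17.1, 7.32 and 5.82, and Thy1- libraries 6.08, 2.31, 2.37 and 2.46. HFSC libraries held 4.62, 17.4, 5.35 and 0, and YFP+ libraries 3.99, 6.19 and 0. The lowest DETC library was above the highest keratinocyte library by a wide gap, from 47.0 to 17.4.

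The mean was 62.8 ± 11.1 (SD, n = 5) in DETCs and between 3.31 and 9.77 in the keratinocyte populations. The log2 fold change of DETCs was 2.65 ± 0.66 (SE) against Thy1hi cells (limma adjusted p 0.00313), 3.95 ± 0.66 against Thy1- cells (8.96e-05), 3.64 ± 0.66 against HFSCs (0.00018) and 4.26 ± 0.72 against YFP+ cells (8.94e-05). The exact p was 0.0159 in the first 3 and 0.0357 in the last, the smallest possible in each. All 4 calls held in the 20 fits without 1 library, and in all 12 alternatives except that against Thy1hi cells with a pseudocount of 0.1 (limma adjusted p 0.0782). Because the gene entered the test through the DETC libraries, a difference from them was favoured by the filter. The sum over 8 pericyte and smooth muscle markers, of which 4 were tested, was 252.5 to 766 in DETCs, 1286 to 1963 in HFSCs, 735 to 1170 in Thy1- cells, 574 to 1035 in YFP+ cells and 392 to 768 in Thy1hi cells. Of the 4 tested, 1 was called higher and 1 lower in DETCs against YFP+ cells (38.1% of all genes called). None was higher and 1 lower against HFSCs (39.7%) and against Thy1- cells (34.1%), and none was called against Thy1hi cells (36.6%). Of 6 dermal fibroblast markers tested, 3 were higher and 1 lower in DETCs against YFP+ cells (38.1%), and 1 higher and 1 lower against HFSCs (39.7%). In DETCs 2 were higher and none lower against Thy1- cells (34.1%), and none higher and 1 lower against Thy1hi cells (36.6%). The part of pericytes, smooth muscle or fibroblasts in the Pdgfrb values was not tested.

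**Figure D3:**
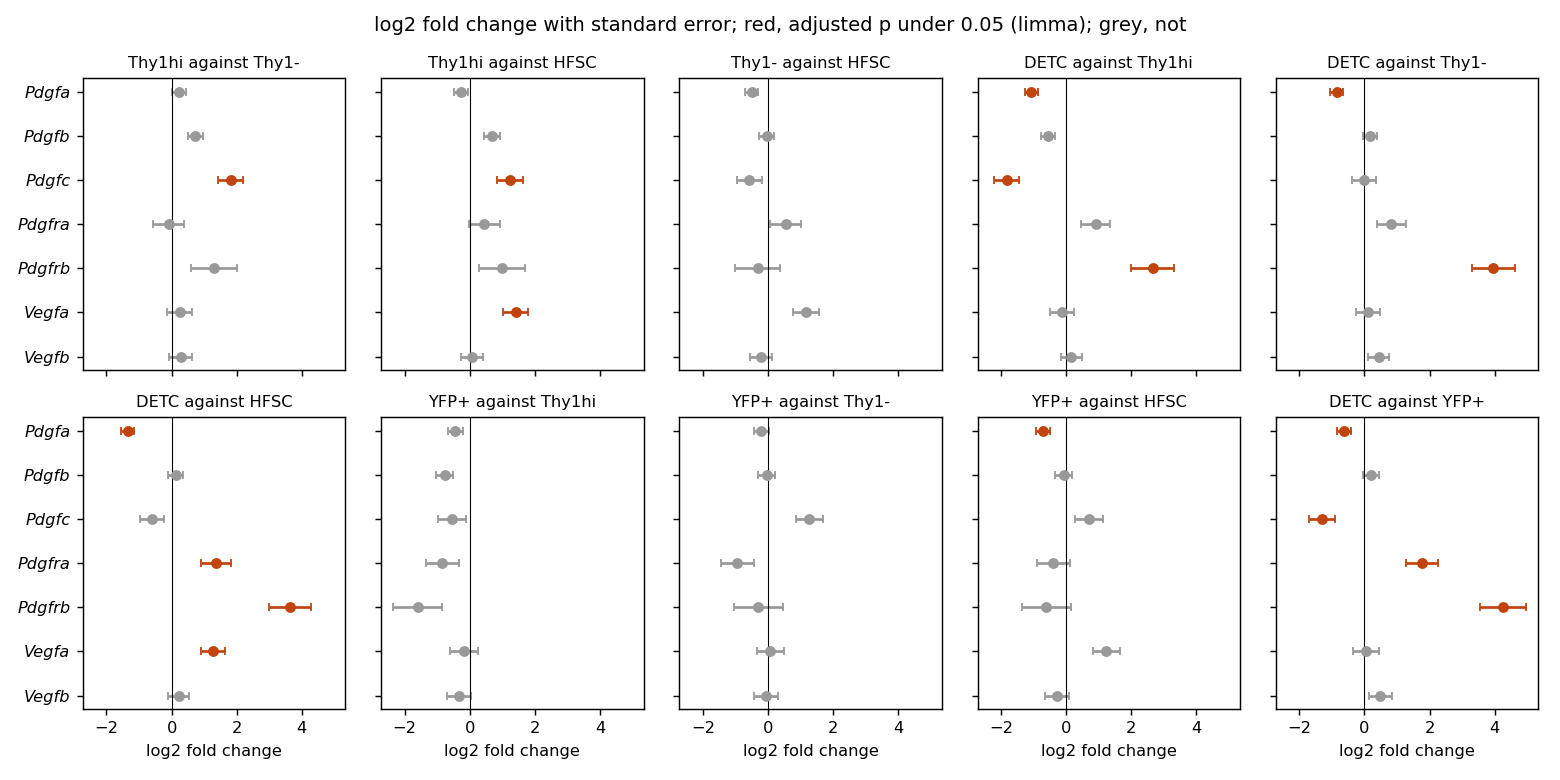
log2 fold change with its standard error (x axis) of the 7 members tested, in 10 comparisons of populations, with called members (limma, adjusted p under 0.05) in red and others in grey. Pdgfrb reached 4.26 in DETCs against YFP+ cells, Pdgfa lay at -0.64 to -1.35 in the DETC panels, and Pdgfc and Vegfa were called in Thy1hi cells against HFSCs.

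To compare ligands with each other, normalized counts were divided by the summed exon length of each gene in kilobases. On this scale Pdgfa made up most of the PDGF ligand level in every population, with a mean share of 80.0% ± 3.65 (SD, n = 4) in HFSCs, 75.3% ± 8.03 (n = 4) in Thy1- cells, 68.1% ± 3.02 (n = 3) in YFP+ cells, 65.0% ± 1.07 (n = 4) in Thy1hi cells and 61.5% ± 7.19 (n = 5) in DETCs. Pdgfc had 11.3% ± 2.02 in Thy1hi cells (9.89% to 14.2% over libraries) and 4.40% ± 1.53 in Thy1- cells (2.34% to 6.01%). Pdgfb had its largest share in DETCs, at 30.8% ± 3.90, where Pdgfa was lowest. Pdgfd, the remaining PDGF ligand, did not exceed a mean share of 1.39% in any population.

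Among VEGF ligands Vegfa had 59.5% ± 11.8 (SD, n = 4) of the level per kilobase in HFSCs and 70.8% to 79.5% in the other populations. Vegfd, which like Vegfc encodes a ligand of lymphatic endothelium, had 19.7% ± 8.80 in HFSCs, 18.1% ± 8.06 in Thy1- cells, 16.7% ± 7.38 in Thy1hi cells, 14.5% ± 4.34 in YFP+ cells and 6.44% ± 3.15 in DETCs. The level of VEGF-D transcript was thus well above that of Vegfc in each population.

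**Figure D4:**
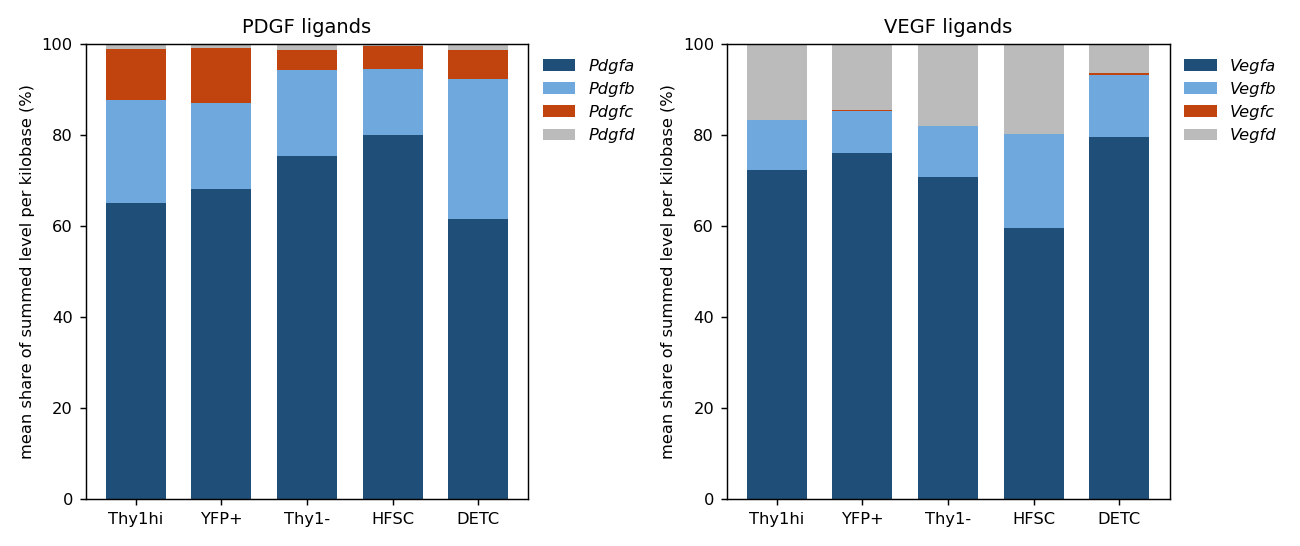
Mean share (y axis, percent) of each ligand in the summed level per kilobase of PDGF ligands (left) and VEGF ligands (right) in the 5 populations, as stacked bars without error bars. Pdgfa and Vegfa fill most of each bar, at 61.5% to 80.0% and 59.5% to 79.5%.

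Beyond the 8 genes, 9 further members of the families were listed, of which 8 were tested (Pdgfd was below the filter). Vegfd was the member of this list with the clearest differences. Thy1hi libraries held 114 to 166 normalized counts, Thy1- libraries 89.1 to 176, YFP+ libraries 70.4 to 126, HFSC libraries 49.96 to 82.3 and DETC libraries 21.9 to 53.8. Thy1hi cells exceeded HFSCs by 0.92 ± 0.28 (SE) on the log2 scale (limma adjusted p 0.0347, exact p 0.0286), a call lost without HFSC replicate 2 or 4 or Thy1hi replicate 2, 3 or 4 (limma adjusted p up to 0.0989). DETCs stood at -1.74 ± 0.27 against Thy1hi cells (limma adjusted p 2.97e-05), -1.63 ± 0.27 against Thy1- cells (7.5e-05) and -1.31 ± 0.29 against YFP+ cells (0.00129), which held in all 13 alternatives and 20 fits without 1 library. Against HFSCs they stood at -0.82 ± 0.27 (limma adjusted p 0.0194; 0.104 with the replicate block), called in 17 of the 20 fits and lost without HFSC replicate 1 or 3 or DETC replicate a.

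The VEGF receptors were low throughout. Kdr, the main signalling receptor for VEGF-A, had means of 15.9 ± 9.00 (SD, n = 5) in DETCs and 1.97 ± 1.14 (n = 4) in HFSCs (log2 fold change 2.41 ± 0.75 SE, limma adjusted p 0.0139, exact p 0.0159), with 7.33 to 14.0 in the other populations, and the call held in all 20 fits without 1 library and in 11 of 12 alternatives. Flt4, the receptor for VEGF-C and VEGF-D, averaged 16.6 ± 7.68 in DETCs and 2.28 to 4.29 elsewhere, and was called against Thy1hi cells (2.23 ± 0.81, limma adjusted p 0.0355), HFSCs (0.0278) and YFP+ cells (0.0440). Like Pdgfrb, it entered the test through the DETC libraries, since outside them only Thy1- replicate 2 reached 10.4, which favoured a difference from DETCs. These calls held in 7, 9 and 5 of 12 alternatives and in 14, 13 and 13 of the 20 fits without 1 library, and each was lost without DETC replicate 1, 2, a or b. The second was also lost without HFSC replicate 1, 3 or 4, the first without Thy1hi replicate 3 or 4, and the third without HFSC replicate 1 or YFP+ replicate 1 or 3. Of the 5 endothelial markers tested, DETCs had 2 called higher and none lower against HFSCs (39.7% of all genes called). With the replicate block 3 were higher (42.2%). Against YFP+ cells 2 were higher and none lower (38.1%), against Thy1hi cells 1 was higher (36.6%), and against Thy1- cells none was called (34.1%). The part of endothelial transcripts in the Kdr and Flt4 values was not tested. Of the co-receptors, Nrp1 was higher in DETCs than in Thy1- cells (22.9 against 10.1 normalized counts; limma adjusted p 0.0297). That call held in 6 of 12 alternatives, with edgeR and DESeq2 not among them, and was lost without DETC replicate 1 or 2 or Thy1- replicate 1, 3 or 4. The Nrp1 value of Thy1- replicate 4 was among those put back to their rows. Nrp2 was called in no comparison. Flt1, Pgf, which encodes placental growth factor, and Pdgfrl were called in none.

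A list of 8 genes covered the processing and activation of these ligands. Between Thy1hi and Thy1- cells limma called none (1 at an unadjusted p under 0.05; 0 by edgeR and by DESeq2). Plat, tissue plasminogen activator and an activator of PDGF-C, stood at 153 ± 59.4 (SD, n = 4) in Thy1hi and 172 ± 60.6 (n = 4) in Thy1- cells. In Thy1hi cells against HFSCs 1 was higher and 1 lower (13.4% of all genes called). Plau, urokinase, was higher in Thy1hi cells than in HFSCs (225 against 101 normalized counts, log2 fold change 1.17 ± 0.36 SE, limma adjusted p 0.0334), a call lost without HFSC replicate 1 or 4 or Thy1hi replicate 1, 2 or 3. It was lower in DETCs than in Thy1hi, Thy1- and YFP+ cells (-1.58, -1.14 and -1.94, limma adjusted p 0.000869, 0.0119 and 0.000287), the second not without Thy1- replicate 2 (0.0616). Furin, a proprotein convertase, averaged 3201 ± 1034 (n = 5) in DETCs against 673 to 970 elsewhere, and was called higher in all 4 comparisons (limma adjusted p from 1.1e-06 to 0.000125).

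Vegfa is a target of the hypoxia pathway, so 16 genes of that pathway were counted beside it. Against HFSCs, 9 of 16 were called higher in Thy1hi cells and none lower (13.4% of all genes were called), with a median log2 fold change of 1.21 where all genes had 0.02. These included Hif1a, the oxygen-regulated subunit (3378 against 1544 normalized counts, log2 fold change 1.17 ± 0.27 SE, limma adjusted p 0.00544), the prolyl hydroxylases Egln1 (781 against 337, 0.000839) and Egln3 (1217 against 248, 0.0116), the glucose transporter Slc2a1 (2164 against 881, 0.0141) and the glycolytic enzymes Pgk1 (1109 against 429, 0.00508) and Ldha (1821 against 858, 0.00517). Without HFSC replicate 4, which was lowest of its population for 11 of the 16, 7 were called higher, and without all replicate 4 libraries 9 were.

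Fewer passed in the other keratinocytes. Against HFSCs, 5 of 16 were called higher in YFP+ cells (11.6% of all genes called) and 2 in Thy1- cells (Epas1 and Egln3; 6.08% of all genes called). Without HFSC replicate 4 the counts were 3 and 0, without all replicate 4 libraries 3 and 4, and edgeR called 3 and DESeq2 5 in Thy1- cells. At an unadjusted p under 0.05, 11 of 16 differed in Thy1- cells. Between Thy1hi and Thy1- cells limma called none (2 at an unadjusted p under 0.05, 0 by edgeR, 0 by DESeq2; Hif1a alone with the replicate block, limma adjusted p 0.0473). In Thy1hi and Thy1- cells, replicate 4 was the lowest library for 10 of the 16 genes, as it was for Vegfa.

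The 16 genes were also counted in DETCs. Against Thy1hi cells 9 of the 16 were lower and 3 higher (36.6% of all genes called), and Vegfa stood at -0.13 and did not pass. Slc2a1 had a log2 fold change of -1.61 (limma adjusted p 0.00199), Adm, which encodes the vasodilator adrenomedullin, -2.74 (0.0105) and Pdk1, a brake on mitochondrial pyruvate use, -1.07 (3.59e-05). The 3 that were higher were Vhl, which marks hypoxia-inducible factors for degradation (150 against 26.8 normalized counts, log2 fold change 2.46, limma adjusted p 1.94e-06), Arnt (0.80, 0.000696) and Egln2 (0.93, 0.00096). Against HFSCs, 3 were called higher and 1 lower (39.7% of all genes called), or 4 and 6 with the replicate block (42.2%). The part of the hypoxia pathway in the Vegfa values was not tested in any population.

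**Figure D5:**
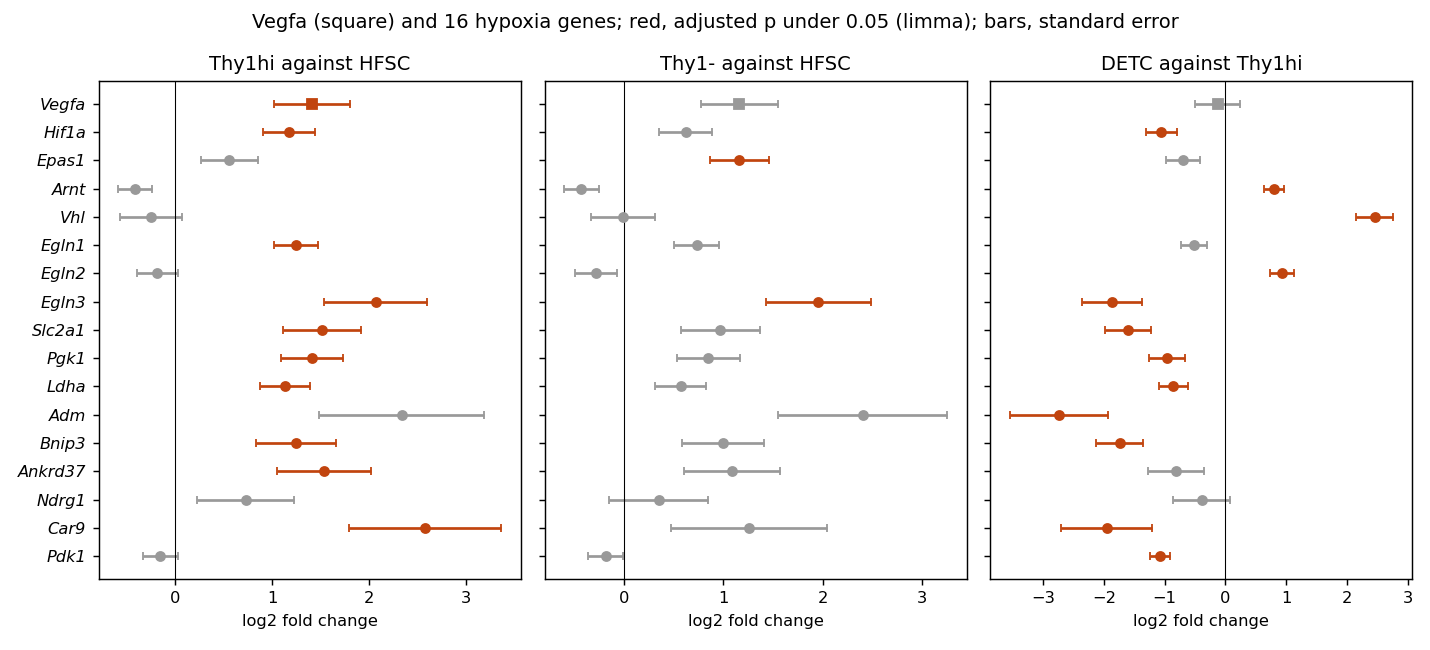
log2 fold change with its standard error (x axis) of Vegfa (square) and 16 hypoxia genes (circles) in 3 comparisons, with genes called by limma (adjusted p under 0.05) in red. In Thy1hi cells against HFSCs, Vegfa (1.41) lies among 9 called genes on the right. In DETCs against Thy1hi cells, Vegfa (-0.13) lies near 0, with 9 called genes to the left and 3 to the right.

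Signalling proteins that act below PDGF and VEGF receptors also act below many other receptors, the T cell receptor included. Of 12 such genes, 7 were called higher and 2 lower in DETCs against each of the 4 other populations, where 34.1% to 39.7% of all genes were called. The higher ones were Grb2, Sos1, Ptpn11, Plcg1, Pik3r1, Pik3ca and Src, led by the regulatory subunit of phosphoinositide 3-kinase Pik3r1 (6130 ± 3075 SD, n = 5, against 649 ± 133 in Thy1hi cells, log2 fold change 3.15, limma adjusted p 1.26e-08) and phospholipase Plcg1 (3.05, 4.17e-10), and the lower ones the adaptors Gab1 (-1.14, 0.00061) and Crk (-0.80, 7.87e-05). Thy1hi cells held less Pik3r1 than HFSCs (-1.69, 0.000376) and less Plcg1 (-0.97, 0.00391). Between Thy1hi and Thy1- cells none of the 12 was called by limma (1 at an unadjusted p under 0.05, 0 by edgeR and by DESeq2), and Plcg1 was lower with the replicate block (limma adjusted p 0.0431).

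Genes that growth factor receptors induce early or as a brake were taken as a list of 10. Between Thy1hi and Thy1- cells limma called none (1 at an unadjusted p under 0.05, 0 by edgeR and by DESeq2). In DETCs against Thy1hi cells, where 36.6% of all genes were called, 2 were higher and 3 lower, or 6 lower without HFSC replicate 4 and 5 without all replicate 4 libraries. The higher ones were the receptor kinase inhibitors Spry2 (1835 against 136 normalized counts, log2 fold change 3.73 ± 0.24 SE, limma adjusted p 3.53e-10) and Spry4 (437 against 7.83, 5.74 ± 0.43, 2.48e-09), and the lower ones Spry1, Etv4 and Etv5. Against HFSCs (39.7% of all genes called), DETCs had 2 higher and 3 lower, or 7 lower without HFSC replicate 4 and with the replicate block, and 8 without all replicate 4 libraries. That library held Fos at 399 normalized counts, where the highest HFSC library held 13930, and Egr1 at 383, where the highest held 10260. Spred1, a further inhibitor of the pathway, was lower than in HFSCs in Thy1hi cells (-0.82, limma adjusted p 0.00627) and in Thy1- cells (-0.79, 0.0171). The Spred1 value of Thy1- replicate 4 was among those put back to their rows.

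For each member tested, the genes nearest to it in pattern were named, by the root mean square difference of centred log2 values over the 20 libraries. Nearest to Vegfa were Aldh18a1 (0.28, where the values of Vegfa itself had a root mean square of 0.74), Tmed5 (0.30) and Eif2s2 (0.33). Nearest to Pdgfa were Ppp2r3a (0.21, against 0.55 for Pdgfa itself), Cuedc1 and Bmpr1a. For Pdgfrb they were Cd72, Gch1 and Rragb (0.71 to 0.79, against 1.86), and for Pdgfra they were Slit2, Il17ra and H6pd (0.57 to 0.59, against 0.85). Pdgfc had Cep72, Slc4a8 and Fopnl at 0.53 to 0.54, against 0.87 for itself, with Slc4a8 at 393 normalized counts in Thy1hi and 131 in Thy1- cells. Pdgfb had Map4, Znrf3 and Stk35 (0.27 to 0.31, against 0.39), and Vegfb had Zfp764, Gnptab and Gpd1l (0.26 to 0.27, against 0.46).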

How the data were processed

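Reads had been aligned with STAR to mm10 and counted per gene with featureCounts, per the labels, and the authors divided the counts by DESeq2 size factors before the files were deposited. The deposited values are thus a normalized signal with a decimal part, not raw reads. The annotation release, the strand setting and the versions of STAR and featureCounts are not given in the sources used here. Multiplying back gave whole reads for 100% of values (tolerance 0.0051 normalized counts) and size factors of 0.729 to 1.43. The column of Thy1- replicate 4 had 3212 genes in displaced rows. Over these genes, this library correlated with its population (mean of its fellow libraries) at 0.0147 as deposited and 0.941 once put back, and 0.824 to 0.983 for the other libraries with their own populations, as deposited. The design text mentions 2 batches. The labels do not say which library was in which, so how batch and population overlap is unknown and batch was not adjusted for.

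Genes with at least 10 normalized counts in at least 3 libraries were tested with limma 3.58.1 (trend) on log2(normalized count + 1) in 1 fit of 20 libraries with Benjamini-Hochberg adjustment over 17204 genes, beside exact permutation tests (scipy 1.17.1). edgeR 4.0.16 and DESeq2 1.42.0 ran on the recovered reads (R 4.3.3), as alternatives with other pseudocounts, filters, scalings and left-out libraries. The scripts were tested on simulated data. Correlations of deviations between same-numbered libraries were 0.293 to 0.716 for Thy1hi and Thy1- cells (4 pairs). For HFSCs and DETCs (3 pairs) they were 0.17 to 0.333. A replicate block was fitted in these comparisons. Pairs of unlike number reached 0.514 for Thy1hi and Thy1- cells and 0.371 for HFSCs and DETCs, so the numbers paired these libraries only in part. Genes named are the 8 members, genes of the fixed lists that were called or whose role is described, and the 3 genes nearest to each member. The members and lists were chosen with earlier results of these data known. Marker lists covered keratinocytes, hair follicle stem cells, T cells, fibroblasts, endothelium, pericytes and smooth muscle, melanocytes and Langerhans cells.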

Additional observations from a re-analysis of the deposited data

Results flagged for a closer look

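Among 62 sets of 4 or 5 libraries of a population, 6 held a library far from the others by Dixon's criterion. The sets covered the 8 members and their further family members. For normally spread values chance gives about 1 in 20. Sets near 0, such as Vegfc in Thy1- cells with 1 read, need not follow that rate, so no excess is read from this count. Pdgfrb stood at 6.08 normalized counts in Thy1- replicate 1 and at 2.31 to 2.46 in the other Thy1- libraries. Vegfc stood at 1.22 in Thy1- replicate 1, where the others were at 0, and at 9.15 in DETC replicate 2, where the others reached 1.37. In that DETC library Flt1 stood at 17.29 against 4.89 to 8.41 in the other DETCs. Flt4 was lower in DETC replicate 3, at 3.16 against 17.29 to 21.53. Nrp2 stood at 148.1 in Thy1- replicate 2 and at 59.16 to 70.54 in the other Thy1- libraries, of which replicate 4 had its row put back for this gene.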

How the results depend on the processing

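Of 2280 alternative values for single members, 2102 kept direction and side of the threshold, 73 lost a call, 34 gained one and 71 changed direction, the last in 19 of 70 results. The causes were not tested. In Thy1hi against Thy1- cells the count of 1 member fell to 0 with a pseudocount of 0.1, with no filter, with a mean of at least 50 (where Pdgfc was not tested), rescaled to the same total, with edgeR, in the row order as deposited and without all replicate 4 libraries. Against HFSCs, Thy1hi cells had 1 in place of 2 with no filter, the same total, only these 2 populations, and without replicate 4, and Thy1- cells 1 in place of 0 with the same total, DESeq2, the replicate block over all populations, and without replicate 4. YFP+ cells against HFSCs had 0 in place of 1 with no filter, only these 2 populations (with and without the replicate block), the deposited row order and without replicate 4, and 2 with quantile normalization and the block over all populations. YFP+ against Thy1- cells had 1 in place of 0 with DESeq2 and the block over all populations. DETCs against Thy1hi cells had 5 in place of 3 with the block on these 2 populations. With a mean of at least 50, where Pdgfrb, Pdgfra and Pdgfc were not tested, DETCs had 1 against Thy1- cells, 2 against HFSCs and 1 against YFP+ cells. In a fit of only DETCs and YFP+ cells, 2 members were called in place of 4. Fits that left out 1 library each gave 0 to 1 (Thy1hi against Thy1-), 0 to 3 (Thy1hi against HFSC), 0 to 1 (Thy1- against HFSC), 3 to 4 (DETC against Thy1hi), 2 to 2 (DETC against Thy1-), 3 to 4 (DETC against HFSC), 0 to 0 (YFP+ against Thy1hi), 0 to 1 (YFP+ against Thy1-), 0 to 2 (YFP+ against HFSC) and 1 to 4 (DETC against YFP+). The replicate block changed no member call in the 2 paired comparisons. All genes called between Thy1hi and Thy1- cells were 58, against 1137 with the block on these 2 populations, 216 with it over all populations, 210 by DESeq2, 95 with only these 2 populations, 34 at the same total and 16 without replicate 4. For Thy1- cells against HFSCs they were 1046, against 2402 by DESeq2 and 2979 without replicate 4.

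Every log2 fold change that reversed was uncalled. Rescaled to the same total, Pdgfb was at 0.172 (Thy1- against HFSC), -0.011 (DETC against Thy1-) and 0.0525 (YFP+ against HFSC), and Vegfa at -0.0657 (DETC against Thy1-), -0.0118 (YFP+ against Thy1-) and -0.0539 (DETC against YFP+). With quantile normalization, Pdgfb was at 0.108 and 0.018 (Thy1- and YFP+ against HFSC), Vegfa at -0.223 and -0.302 (DETC against Thy1- and YFP+), and Pdgfrb at 0.506 and Vegfb at 0.0196 (YFP+ against Thy1-). Pdgfrb was at 0.267 with a pseudocount of 0.1 (Thy1- against HFSC), and for YFP+ against Thy1- at 0.15 with edgeR and 0.124 with DESeq2, where Vegfa was at -0.0203 and -0.05. With the replicate block over all populations, Vegfb was at -0.0198 (DETC against Thy1hi) and 0.0644 (YFP+ against Thy1-), and Vegfa at -0.389 (DETC against Thy1-), -0.241 (YFP+ against Thy1-) and -0.147 (DETC against YFP+). With the block on 2 populations, Vegfa was at -0.354 (DETC against Thy1-), -0.207 (YFP+ against Thy1-) and -0.147 (DETC against YFP+), Vegfb at -0.24 (DETC against HFSC) and 0.265 (YFP+ against Thy1-), and Pdgfb at 0.114 (YFP+ against Thy1-). Without replicate 4, Vegfb was at -0.299 (Thy1hi against HFSC) and 0.265 (YFP+ against Thy1-), Pdgfc at 0.0357 and Vegfa at -0.161 (DETC against Thy1-), and Pdgfb at 0.114 and Vegfa at -0.207 (YFP+ against Thy1-).

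Without 1 library each, the ranges that crossed 0 were, for Thy1hi against Thy1-, -0.298 to 0.0931 (Pdgfra) and -0.0332 to 0.577 (Vegfa), and for Thy1hi against HFSC, -0.145 to 0.233 (Vegfb). For Thy1- against HFSC they were -0.193 to 0.145 (Pdgfb) and -1.1 to 0.304 (Pdgfrb). For DETC against Thy1hi they were -0.458 to 0.0322 (Vegfa) and -0.0106 to 0.359 (Vegfb). For DETC against Thy1- they were -0.0173 to 0.32 (Pdgfb), -0.314 to 0.11 (Pdgfc) and -0.161 to 0.415 (Vegfa), and for DETC against HFSC, -0.0173 to 0.27 (Pdgfb). For YFP+ against Thy1- they were -0.224 to 0.114 (Pdgfb), -0.864 to 0.559 (Pdgfrb), -0.207 to 0.37 (Vegfa) and -0.234 to 0.265 (Vegfb). For YFP+ against HFSC they were -0.224 to 0.0633 (Pdgfb) and -1.4 to 0.243 (Pdgfrb), and for DETC against YFP+, -0.126 to 0.189 (Vegfa).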
